A study of Mus musculus with 3 samples.

Results

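Oligodendrocyte precursor and early lineage genes were followed by symbol through ribosome-bound RNA of mouse brain. The set holds 7 genes, Pdgfra, Tnr, Olig1, Olig2, Gpr17, Enpp6 and Bcas1, out of 16610 genes in the table. All 7 were present and all 7 had a mean normalised read count of at least 20 over the 3 libraries, as did 14906 genes in all. The genes were chosen by name, with earlier results of these data known, and not by a threshold on their values.

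There was 1 library per group, each pooled from 3 animals with 2 technical replicates per the series design. The MCAO left library came from the left hemisphere of animals whose middle cerebral artery had been occluded for 1 h (MCAO, a model of ischaemic stroke). The contralateral right library came from the right hemisphere of animals with MCAO. The labels do not say whether these 2 libraries came from the same animals. The control right library came from the right hemisphere of animals without MCAO. All tissue was the middle section of a hemisphere taken at 3 days, and all RNA was recovered by RiboTag immunoprecipitation, which uses a tag on a ribosomal protein to bring down ribosomes with the transcripts they carry. The series title speaks of astrocytes, but the labels used here name no strain, age or driver for the tag. No left hemisphere without MCAO was analysed here, so side and occlusion cannot be told apart.

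Oligodendrocyte precursor cells divide throughout adult life in mouse brain and are kept in that state in part by PDGF acting on its alpha receptor. On differentiation they lose the receptor, pass through a short premyelinating stage marked by GPR17, ENPP6 and BCAS1, and then make myelin. OLIG1 and OLIG2, a pair of basic helix-loop-helix transcription factors, are present through the lineage, and OLIG2 also occurs in some astrocytes and neural progenitors. After focal ischaemia, precursor cells near a lesion are known to divide and to thicken their processes.

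The libraries held 25930258 reads for MCAO left, 33886604 for contralateral right and 31833456 for control right, counted back from the normalised values. The 7 genes together took 0.0499% of MCAO left reads, 0.0395% of contralateral right reads and 0.0371% of control right reads. Astrocyte genes were abundant in each library, with a median normalised read count of 18863, 18545 and 19496 over 12 genes in that order, and 12 neuron genes had medians of 12525, 12875 and 12397. Those medians are not per transcript length and do not measure shares of cells. The cells that gave the early lineage transcripts were not identified, and in bulk RNA fewer cells of a type and less RNA per cell cannot be told apart. All 10 male germ cell genes listed for the purpose were at least 2-fold higher in contralateral right than in control right, with summed values of 24.3 in MCAO left, 10017 in contralateral right and 34.0 in control right. Their part in the lineage values of the contralateral library was not tested.

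No group had a second library, so no p-value was computed and no difference has a replicate check. Folds are ratios of the deposited normalised read counts, and each is followed by its 95% counting interval (exact Clopper-Pearson, from the recovered reads). Reads lacking molecular identifiers cannot be taken as independent molecules, so the intervals cover counting error only and leave out variation between animals and pull-downs. A gene was counted as higher or lower where the difference in log2(value + 5) was 2-fold or more, a scale that understates differences of low genes. The plot of normalised read counts by library shows all 7 genes.

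**Figure D1:**
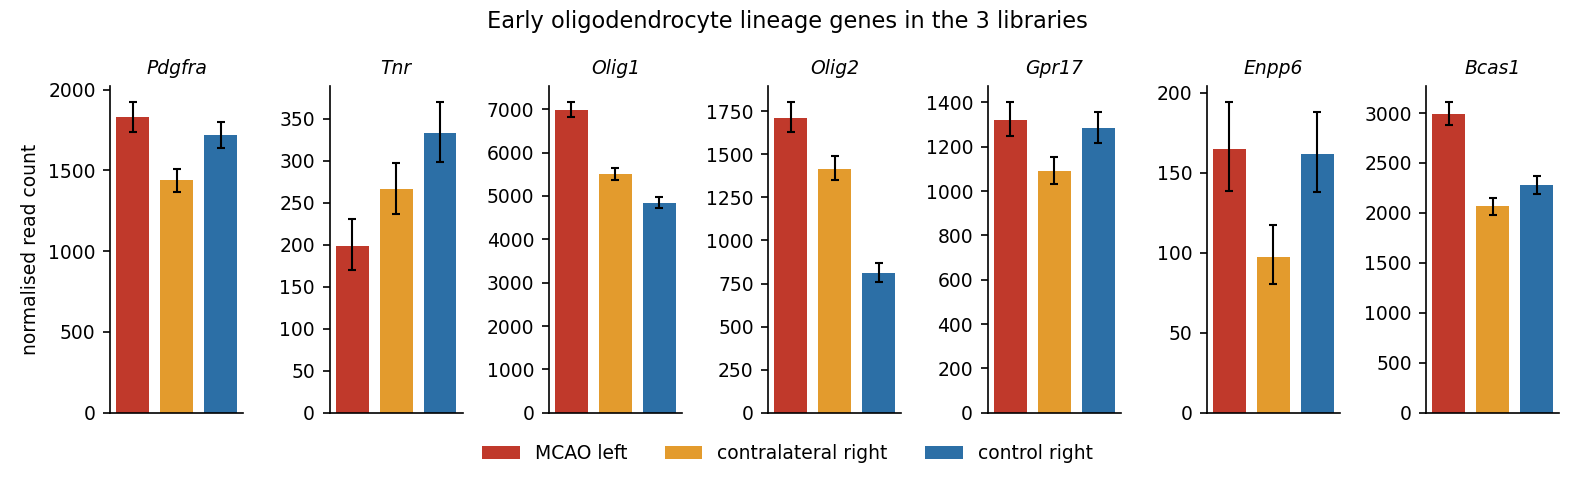
Normalised read counts of the 7 genes, with 1 panel per gene and 1 bar per library (MCAO left, contralateral right, control right); error bars are 95% Poisson counting intervals, and each vertical axis starts at 0 with its own scale. Tnr was lowest in MCAO left at 199, Olig1 and Olig2 were highest there and lowest in control right, and Pdgfra, Gpr17, Enpp6 and Bcas1 were lowest in contralateral right.

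The first question was what the hemisphere with the occlusion held relative to animals without it. Only Olig2 of the 7 genes was at least 2-fold higher in MCAO left than in control right, and none was 2-fold lower. Of all 14906 genes, 4.12% were 2-fold higher and 1.25% were 2-fold lower in that comparison. Olig1 and Bcas1 were higher by smaller ratios, Pdgfra, Gpr17 and Enpp6 were within their counting intervals of the control, and Tnr was lower. At a threshold of 1.5-fold Olig2 was again the only higher gene, beside 9.16% of all genes. The median log2 difference was 0.09 over the 7 genes and -0.0027 over all genes tested, and turned to -0.052 over the 7 genes when libraries were scaled to the astrocyte genes.

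Against the opposite hemisphere of animals with MCAO, 6 of the 7 genes were higher and Tnr was lower, but none reached 2-fold in either direction. There, 3.18% of all genes were 2-fold higher and 4.96% were 2-fold lower. Of the 740 genes lower, 511 had a log2 difference of -1.9 or below. The median log2 difference was 0.34 over the 7 genes and -0.0020 over all genes tested, of which 7403 lay above 0 and 7503 below. At 1.5-fold Enpp6 was counted as higher, beside 6.19% of all genes, and none of the 7 as lower, beside 7.71%.

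The contralateral right library itself was set against control right. None of the 7 genes was 2-fold higher or lower, where 5.17% of all genes were higher and 0.362% were lower. Of the 771 genes higher, 513 had a log2 difference of 1.9 or more, and all 10 male germ cell genes were in that range. Olig1 and Olig2 were higher, the other 5 genes were lower, and the median log2 difference was -0.24, against -0.0037 over all genes tested. At 1.5-fold Olig2 was counted as higher, beside 8.43% of all genes, and Enpp6 as lower, beside 2.25% of all genes. Any 2 of these 3 comparisons share a library.

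**Figure D2:**
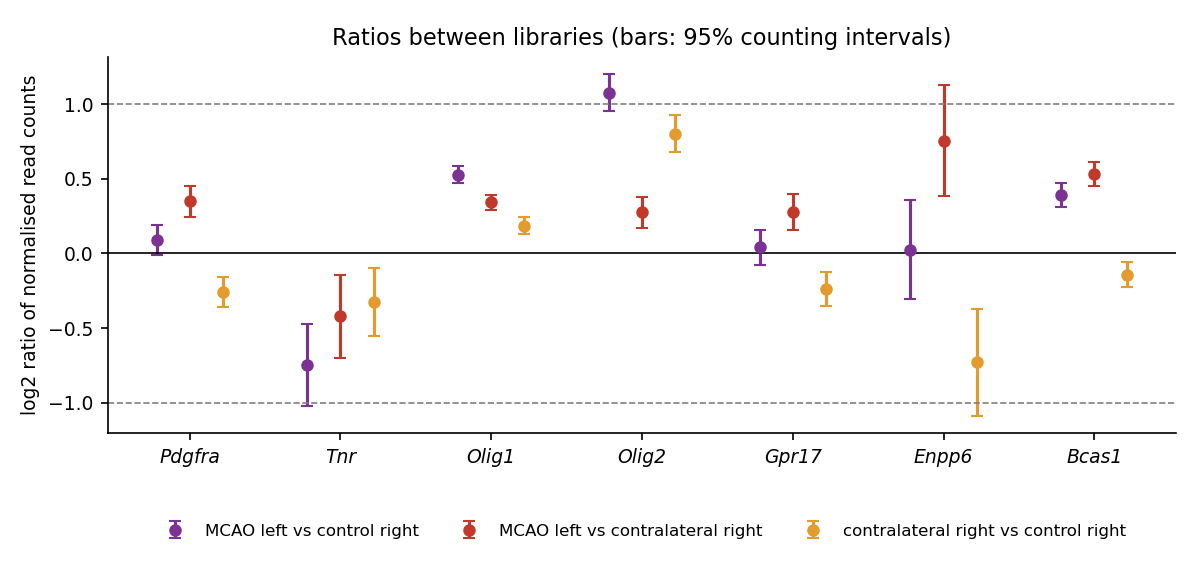
Log2 ratio of normalised read counts for each of the 7 genes in the 3 comparisons between libraries, with 95% counting intervals as bars and dashed lines at 2-fold. Only the Olig2 ratio of MCAO left to control right lies beyond the dashed lines, at 2.11-fold, and the lowest is Tnr in that comparison or Enpp6 between contralateral right and control right, at 0.597-fold and 0.603-fold.

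Olig2 specifies the oligodendrocyte lineage and lies on chromosome 16 at 91225550 to 91228677 (GRCm38.p6, the assembly called mm10). It had a normalised read count of 1714 in MCAO left, 1417 in contralateral right and 813 in control right, from 1457, 1597 and 839 reads. Both libraries from animals with MCAO were thus above the control library. The ratio of MCAO left to control right was 2.11-fold (1.94 to 2.30), and 3.76% of all genes tested had a difference at least as large. The lower end of that interval lies below 2-fold. With the libraries scaled to the median ratio of 12 astrocyte genes the log2 difference was 0.93, short of 2-fold. Relative to contralateral right the ratio was 1.21-fold (1.13 to 1.30), and contralateral right was 1.74-fold control right (1.60 to 1.90). Of the ratios of MCAO left to contralateral right and of contralateral right to control right, the second was the larger.

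Olig1, the neighbouring gene 41092 bases away at 91269769 to 91271939, encodes the related factor that acts in myelin formation. Its normalised read count was 6986 in MCAO left, 5513 in contralateral right and 4844 in control right, from 5939, 6214 and 5002 reads. The order of the libraries was that of Olig2, with narrower steps. MCAO left was 1.44-fold control right (1.39 to 1.498) and 1.27-fold contralateral right (1.22 to 1.31), and contralateral right was 1.14-fold control right (1.10 to 1.18). None of these 3 counting intervals held 1. With the libraries scaled to the astrocyte genes, however, the log2 difference of contralateral right from control right was 0.030, in place of 0.19. The reads of Olig2 per read of Olig1, a ratio that no scaling of the libraries alters, were 0.245 (0.232 to 0.260) in MCAO left, 0.257 (0.243 to 0.272) in contralateral right and 0.168 (0.156 to 0.180) in control right. The intervals of the 2 libraries from animals with MCAO overlapped, and both lay above that of the control.

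Promoter windows of 300 bases (250 before to 50 after a RefSeq start site, GRCm38.p6) were used for 4 of the 7 genes. The 3 shown belong to the gene highest over control, the receptor that defines the precursor, and the gene lowest under control. Capitals mark matches to 4 motifs searched on both strands. These were the E-box forms CAGCTG and CAGATG, of the kind bound by basic helix-loop-helix factors, and ACAAAG and ACAATG, of the kind bound by SOX factors.
Olig2, chr16:91225300-91225599, plus strand: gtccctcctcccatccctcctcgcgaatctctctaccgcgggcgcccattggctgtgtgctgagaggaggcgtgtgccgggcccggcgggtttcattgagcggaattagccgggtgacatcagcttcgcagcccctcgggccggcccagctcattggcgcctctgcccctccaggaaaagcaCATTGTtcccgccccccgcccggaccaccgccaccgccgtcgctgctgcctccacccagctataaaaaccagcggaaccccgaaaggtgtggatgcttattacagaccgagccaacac
Pdgfra, chr5:75152001-75152300, plus strand: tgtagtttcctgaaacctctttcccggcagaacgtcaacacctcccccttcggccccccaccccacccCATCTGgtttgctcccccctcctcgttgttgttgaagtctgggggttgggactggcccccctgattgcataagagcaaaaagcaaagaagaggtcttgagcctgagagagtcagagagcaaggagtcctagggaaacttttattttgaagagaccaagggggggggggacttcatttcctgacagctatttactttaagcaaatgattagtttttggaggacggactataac
Tnr, chr1:159523519-159523818, plus strand: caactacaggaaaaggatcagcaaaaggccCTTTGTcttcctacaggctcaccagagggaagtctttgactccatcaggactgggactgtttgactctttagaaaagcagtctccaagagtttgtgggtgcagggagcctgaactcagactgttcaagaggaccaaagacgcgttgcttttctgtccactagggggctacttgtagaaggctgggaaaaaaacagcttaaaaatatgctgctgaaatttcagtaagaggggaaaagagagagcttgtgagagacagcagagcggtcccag

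The Olig2 window held 1 match to ACAATG, 68 bases before the start site, and none to the other 3 motifs. The Pdgfra window held 1 match to CAGATG, 182 bases before its start site, and the Tnr window held 1 match to ACAAAG, 220 bases before. Of 32851 windows of that length in the RefSeq table, 16.3% held CAGCTG, 17.2% CAGATG, 18.7% ACAAAG and 12.6% ACAATG, so each match is of a common kind. The Olig2 window was 65% G and C with 25 CpG dinucleotides, against 51% and 5 for Pdgfra and 48% and 3 for Tnr. Over all windows the medians were 52.7% and 7, and 18.4% of windows held at least 25 CpG dinucleotides. The start site used for Pdgfra lies 929 bases inside the tabled gene, and that used for Tnr lies 40 bases inside. A match describes these letters and says nothing of binding.

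Pdgfra (chromosome 5, 75151322 to 75198206), the PDGF alpha receptor that keeps precursor cells dividing, had a normalised read count of 1830 in MCAO left, 1438 in contralateral right and 1720 in control right. MCAO left and control right differed by less than the counting error, at 1.06-fold (0.993 to 1.14), and contralateral right stood below both. MCAO left was 1.27-fold contralateral right (1.19 to 1.37), and contralateral right was 0.836-fold control right (0.781 to 0.895). Pdgfra also marks perivascular fibroblasts. In the list of 11 mural and fibroblast genes none was 2-fold higher or lower in any comparison, and its summed value was 4904 in MCAO left, 5009 in contralateral right and 5182 in control right. Within that list the largest difference of MCAO left from control right was that of the fibroblast collagen gene Col3a1, with 133, 110 and 68.8 in the same order. Col1a1 had 245, 232 and 181. Other genes of the list went the other way. In MCAO left 5 of the 11 lay below control right, the lowest being Vtn at a log2 difference of -0.45. In contralateral right 6 lay below, the lowest being Anpep at -0.65. The part of fibroblasts in the Pdgfra values was not tested.

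Tnr (chromosome 1, 159523729 to 159931729) encodes tenascin-R, an extracellular matrix protein made by oligodendrocyte lineage cells and some neurons and found in perineuronal nets. Its normalised read count was 199 in MCAO left, 266 in contralateral right and 333 in control right, from 169, 300 and 344 reads. It was the only one of the 7 genes with its lowest value in MCAO left. MCAO left was 0.597-fold control right (0.493 to 0.719), and 3.08% of all genes tested had a difference as low or lower. MCAO left was 0.747-fold contralateral right (0.615 to 0.905), and contralateral right was 0.799-fold control right (0.682 to 0.935). At 1.5-fold it was counted as lower than control right, beside 5.18% of all genes. The list of 12 neuron genes had a median log2 difference of -0.19 between MCAO left and control right and of -0.05 between MCAO left and contralateral right, and its part in the Tnr values was not tested.

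The premyelinating genes shared 1 feature, a lowest value in contralateral right, which Pdgfra had too. Gpr17 (chromosome 18, 31942999 to 31949890), a G protein-coupled receptor that holds back differentiation, had a normalised read count of 1322 in MCAO left, 1091 in contralateral right and 1286 in control right. MCAO left and control right were not told apart by counting, at 1.03-fold (0.949 to 1.11). MCAO left was 1.21-fold contralateral right (1.12 to 1.31), and contralateral right was 0.849-fold control right (0.785 to 0.918). Gpr17 lies inside the span of Lims2, an adaptor protein gene with normalised read counts of 165, 142 and 123 in the order MCAO left, contralateral right and control right. Lims2 did not follow Gpr17, being lowest in control right, but the sources used here do not state whether counting used strand.

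Enpp6 (chromosome 8, 46939197 to 47096762) encodes a choline-specific phosphodiesterase of newly forming oligodendrocytes and had the fewest reads of the set. Its normalised read count was 165 in MCAO left, 97.6 in contralateral right and 162 in control right, from 140, 110 and 167 reads. MCAO left and control right were close, at 1.02-fold (0.807 to 1.28), with the widest counting interval of the 7 genes. Contralateral right was 0.603-fold control right (0.470 to 0.772), a difference as low or lower than which 1.20% of all genes tested had. MCAO left was 1.69-fold contralateral right (1.31 to 2.19), and 4.85% of all genes tested had a difference at least as large.

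Bcas1 (chromosome 2, 170343973 to 170427911), which marks oligodendrocytes at the onset of myelination and is retained in some mature cells, had a normalised read count of 2992 in MCAO left, 2067 in contralateral right and 2280 in control right. MCAO left was above both right hemispheres, which lay closer together. It was 1.31-fold control right (1.24 to 1.39) and 1.45-fold contralateral right (1.37 to 1.53), and contralateral right was 0.907-fold control right (0.856 to 0.961). Of all genes tested, 7.03% had a difference between MCAO left and contralateral right at least as large as that of Bcas1.

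**Figure D3:**
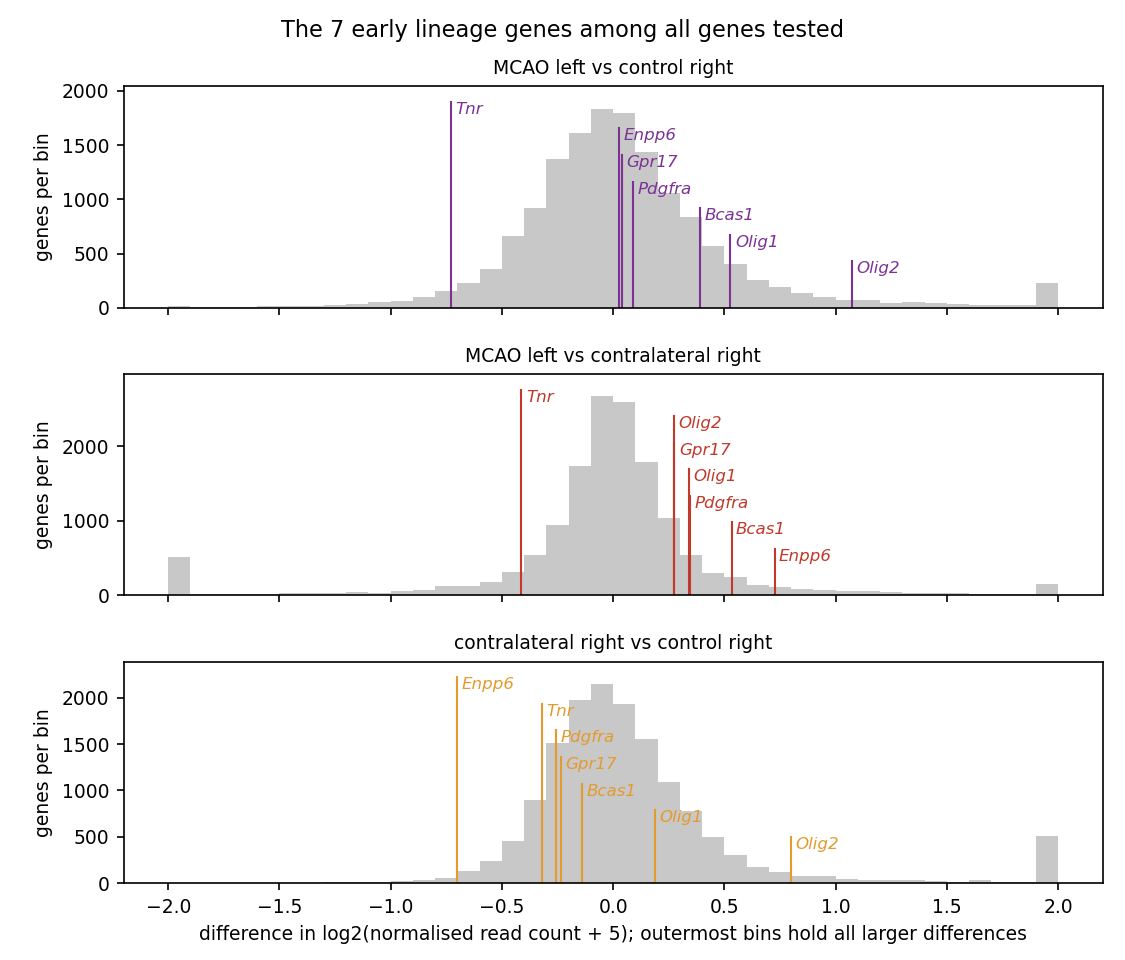
Number of genes per bin of 0.1 in the difference of log2(normalised read count + 5), over 14906 genes and for each of the 3 comparisons, with coloured lines at the 7 genes; the outermost bins hold all larger differences. Between MCAO left and contralateral right the 6 genes other than Tnr lie right of the centre, from 0.27 for Olig2 to 0.73 for Enpp6. Olig2 is the rightmost of the 7 genes in both comparisons with control right, at 1.07 for MCAO left and 0.80 for contralateral right.

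Ratios of reads within a library do not depend on how the libraries were scaled, and were taken over Pdgfra. They compare libraries for 1 gene and are not levels per length. Olig1 reads per Pdgfra read were 3.82 (3.61 to 4.04) in MCAO left, 3.83 (3.63 to 4.05) in contralateral right and 2.82 (2.67 to 2.97) in control right. Olig2 reads per Pdgfra read were 0.936 (0.871 to 1.01) in MCAO left, 0.985 (0.919 to 1.06) in contralateral right and 0.472 (0.435 to 0.513) in control right. For both factors the intervals of the libraries from animals with MCAO overlapped each other and lay above control right.

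Gpr17 reads per Pdgfra read overlapped in all 3 libraries, at 0.722 (0.668 to 0.780) in MCAO left, 0.759 (0.704 to 0.818) in contralateral right and 0.748 (0.696 to 0.803) in control right. Bcas1 gave 1.63 (1.534 to 1.74) in MCAO left, 1.44 (1.35 to 1.532) in contralateral right and 1.33 (1.25 to 1.41) in control right. The interval of MCAO left lay above that of control right and narrowly above that of contralateral right. Enpp6 gave 0.0900 (0.0751 to 0.107) in MCAO left, 0.0679 (0.0554 to 0.0824) in contralateral right and 0.0940 (0.0798 to 0.110) in control right, with all 3 intervals overlapping at least in part. Tnr gave 0.109 (0.0921 to 0.127) in MCAO left, 0.185 (0.163 to 0.209) in contralateral right and 0.194 (0.172 to 0.218) in control right. Relative to Pdgfra, Tnr was thus lower in MCAO left than in both right hemispheres, which overlapped.

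**Figure D4:**
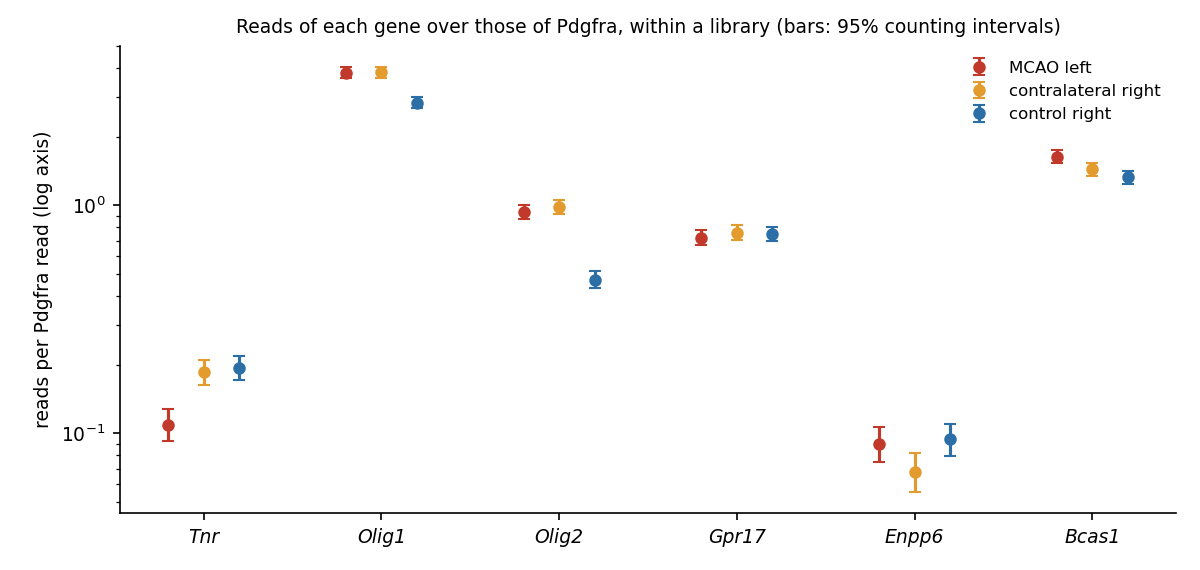
Recovered reads of 6 genes divided by those of Pdgfra in the same library, on a log axis, with 95% counting intervals as bars and 1 colour per library. Olig1 and Olig2 are alike in both libraries from animals with MCAO and lower in control right, Gpr17 is level at 0.722 to 0.759, and Tnr is lowest in MCAO left.

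Over the 2 log2 differences from control right, the genes nearest to each of the 7 were sought among 12437 genes with a mean of at least 100, a likeness that rests on 3 libraries. Olig2 and Enpp6 had few close genes, with 4 and 3 within a distance of 0.1, whereas Gpr17 had 339, Pdgfra 202, Olig1 145, Bcas1 61 and Tnr 60. Nearest to Olig2 were Dbi, encoding the acyl-CoA-binding protein, the cell cycle kinase gene Cdk2 and the RNA-processing gene Lsm5, at distances of 0.03, 0.04 and 0.04. Nearest to Enpp6 were Clic5, Taf1c and the long noncoding RNA Malat1, at 0.03, 0.06 and 0.09. For Pdgfra the nearest were Dck, Mapk7 and Ormdl1, for Gpr17 Ptp4a1, Rfc5 and Coro1c, and for Olig1 Cdk4, Taldo1 and Ezr. For Bcas1 they were Lmf2, Isoc2b and Ifit2, and for Tnr Kcnh4, Alkbh8 and Nav3. Among the 7 genes themselves Pdgfra and Gpr17 were closest, at 0.05, and Olig2 and Tnr farthest apart, at 2.12.

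Other genes of the lineage were described by lists written with earlier results of these data known. Of 12 further precursor markers, 1 was at least 2-fold higher and 1 at least 2-fold lower in MCAO left than in control right, with a median log2 difference of -0.08, and 1 was higher and none lower than in contralateral right, with a median of 0.05. Cspg4, encoding the NG2 proteoglycan of precursor cells and pericytes, had a normalised read count of 1276 in MCAO left, 454 in contralateral right and 554 in control right. MCAO left was 2.81-fold contralateral right (2.53 to 3.13) and 2.30-fold control right (2.08 to 2.55), so Cspg4 stood apart from Pdgfra, with which it is used to define precursor cells. In the list of 11 mural and fibroblast genes 8 lay above contralateral right and 6 above control right, with none at 2-fold. At 1.5-fold 2 were counted as higher than contralateral right, the pericyte channel genes Kcnj8 (81.2 in MCAO left, 45.3 in contralateral right and 61.0 in control right) and Abcc9 (138, 79.9 and 126 in that order). In that list 3 genes lay below contralateral right and 5 below control right. The lowest was Vtn, at a log2 difference of -0.33 and -0.45 in that order. The part of pericytes in the Cspg4 values was not tested.

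Xylt1, a xylosyltransferase that starts proteoglycan chains, was the lower gene, with 60.0 in MCAO left, 114 in contralateral right and 168 in control right. MCAO left was 0.358-fold control right (0.257 to 0.492). Cacng4, an AMPA receptor auxiliary subunit gene, had 313 in MCAO left, 463 in contralateral right and 564 in control right. These libraries were thus in the order seen for Tnr. The matrix protein gene Matn4 was at 385, 312 and 306, with both right hemispheres alike.

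None of 13 genes of the premyelinating stage was 2-fold higher or lower in any comparison. Their median log2 difference was 0.02 between MCAO left and control right and -0.0016 between MCAO left and contralateral right, where the 7 genes had 0.34. The small GTPase gene Rras2 had the largest difference from contralateral right, with 607 in MCAO left, 453 in contralateral right and 473 in control right. Itpr2, an inositol trisphosphate receptor gene, had 1027, 786 and 887, the order seen for Pdgfra and Gpr17. Against contralateral right 7 of the 13 genes lay below 0, among them Mycl, a MYC family factor gene, with 513 in MCAO left, 624 in contralateral right and 613 in control right. The largest difference from control right was that of Cyfip2, an actin regulator gene also expressed in neurons, with 23856, 26451 and 37754 in that order.

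Of 18 transcription factor genes of the lineage, none was 2-fold higher or lower in MCAO left than in either right library on the log2(value + 5) scale, but Zfp536 was counted as lower than control right with a pseudocount of 1 or with astrocyte scaling. Hes5 was 2-fold higher in contralateral right than in control right. Hes5, a Notch target that holds back differentiation and is also present in astrocytes, had 903 in MCAO left, 1291 in contralateral right and 486 in control right. Contralateral right was 2.66-fold control right (2.40 to 2.94). Zfp536, a zinc finger gene, had 36.5, 54.1 and 77.5 in that order, a ratio of MCAO left to control right of 0.471-fold, and Sox8 had 1564, 2016 and 1899.

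Among signals, 1 of 18 genes was 2-fold higher in MCAO left than in control right and none than in contralateral right, where 1, Lif, was counted with a pseudocount of 1. The gene higher than control right was Cntf, encoding ciliary neurotrophic factor, a survival factor for the lineage made by astrocytes, with 135 in MCAO left, 74.5 in contralateral right and 51.3 in control right. The cytokine gene Lif had 41.2, 18.6 and 21.3, with MCAO left 2.21-fold contralateral right (1.25 to 3.99), and the growth factor gene Igf1 had 451, 282 and 397. The PDGF ligands and the beta receptor had no 2-fold difference among 5 genes. Pdgfa, whose product acts on the alpha receptor, had 696 in MCAO left, 598 in contralateral right and 646 in control right.

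Receptor relatives of GPR17 and the other ENPP genes were set beside their family members. Of 6 purinergic and related receptor genes past the filter P2ry6, a UDP receptor of microglia, was 2-fold higher than in each right library, with 176 in MCAO left, 57.7 in contralateral right and 71.7 in control right. The nucleotide receptor gene P2ry2 had 60.0, 29.3 and 39.7 in that order and was also counted as higher than contralateral right with a pseudocount of 1. None of 4 ENPP genes was 2-fold higher or lower in any comparison. Their differences between MCAO left and contralateral right ran from -0.02 to 0.11 in log2, where Enpp6 had 0.73. In the list of tenascins and their partners 1 of 12 genes was 2-fold higher in MCAO left than in control right. This was Tnc, encoding tenascin-C, at 401 in MCAO left, 265 in contralateral right and 179 in control right. Tnc was 2.24-fold control right (1.87 to 2.69) while its family member Tnr was 0.597-fold.

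Later genes of the lineage also lay above contralateral right. All 16 myelin genes had a positive difference between MCAO left and contralateral right, from 0.0039 for Mal (-0.017 when scaled by recovered reads) to 1.45 for Trf. Their median was 0.33, and 2 were 2-fold higher (1 with a pseudocount of 20). Against control right 13 of the 16 myelin genes lay above 0 and 3 below. Their median there was 0.43, where the 7 early lineage genes had 0.09. Trf, encoding the iron carrier transferrin, had 25179 in MCAO left, 9189 in contralateral right and 7713 in control right. Ppp1r14a, a phosphatase inhibitor gene, had 203, 93.2 and 105.

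**Figure D5:**
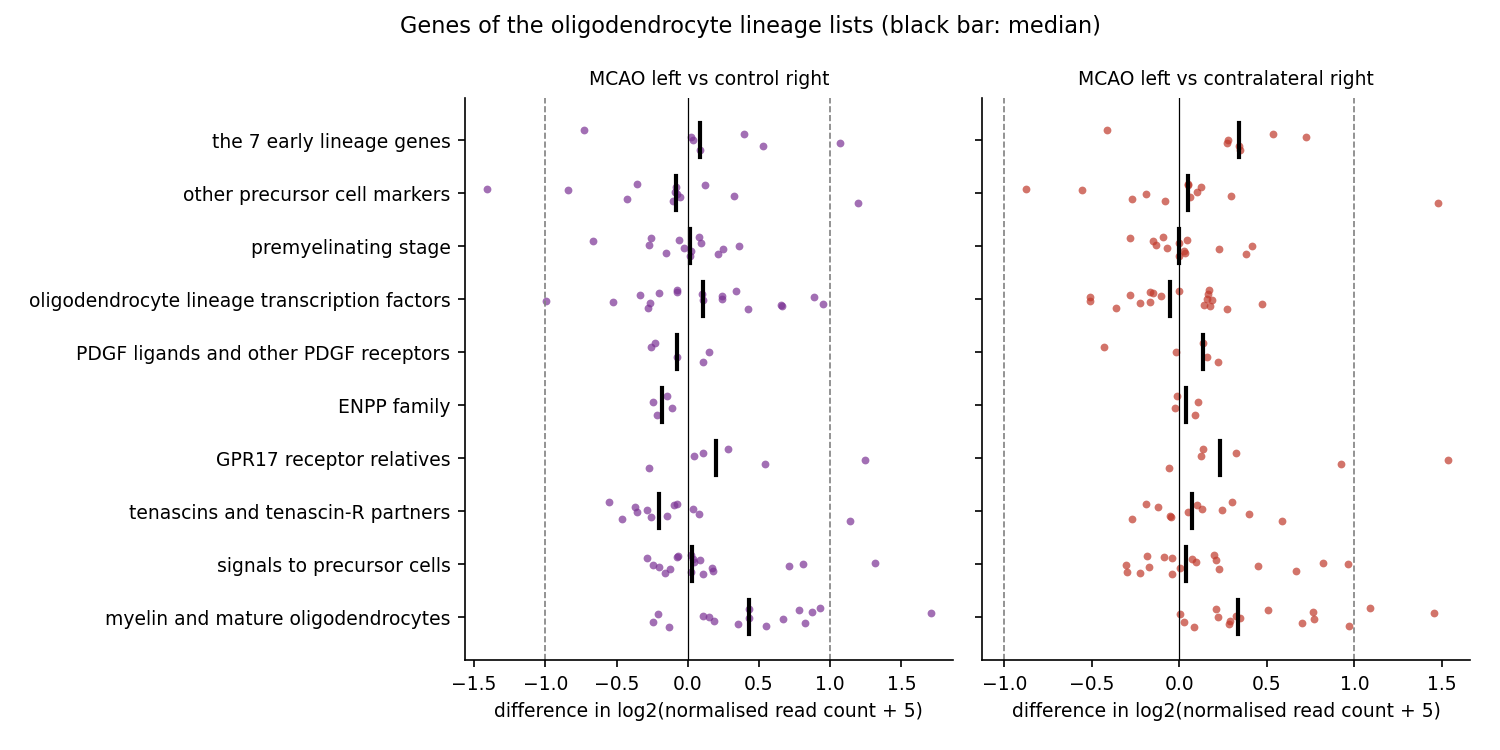
Difference in log2(normalised read count + 5) of every gene past the filter in the 10 lineage lists, for MCAO left against control right and against contralateral right; each point is a gene, black bars are medians and dashed lines mark 2-fold. Against contralateral right the medians of the 7 early lineage genes (0.34) and of the myelin list (0.33) lie right of those of the premyelinating list (-0.0016) and the transcription factor list (-0.05). Against control right the 7 genes (0.09) and the myelin list (0.43) lie apart.

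Markers of other cells differed in the same libraries. Of 11 reactive astrocyte genes past the filter, 10 were 2-fold higher in MCAO left than in each right hemisphere, with summed values over all 12 listed of 122001 in MCAO left, 23083 in contralateral right and 13717 in control right. Of 13 microglia and macrophage genes 10 were 2-fold higher than in each right hemisphere, with summed values of 32325, 10256 and 10043. Of 15 cell cycle genes 14 were 2-fold higher in MCAO left than in control right and 10 than in contralateral right, and 5 were 2-fold higher in contralateral right than in control right. Their sums were 5830, 2695 and 2423. Among the 5 was the spindle checkpoint gene Bub1, with 47.1 in MCAO left, 63.9 in contralateral right and 1.94 in control right, the last from 2 reads. Contralateral right was also the library with high male germ cell genes, at a sum of 10017. The part of germ cell transcripts in these 5 was not tested. Of 10 endothelial genes only Tek was 2-fold higher than in contralateral right (0 to 2 genes under the other pseudocounts) and none than in control right, and the sums were 1073, 728 and 931. No gene of the reactive astrocyte, microglia, cell cycle and endothelial lists was listed at the minimum value of 1 in any library. Their part in the Olig2, Olig1 and Bcas1 values of either library from animals with MCAO was not tested.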

How the data were processed

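Ribosome-bound RNA of 3 libraries was read from 1 table of gene symbols, in which the authors deposited a signal per library, made by dividing read counts by a size factor, with values below 1 listed as 1. CASAVA 1.8, HISAT2 2.0.11, Partek 6.6, R 3.3.1, DESeq2 and mm10 are named per the submitters' processing notes, without a role for each. Columns were matched through the sample descriptions. Strand use in counting is not given in the sources used here, and Gpr17 overlaps Lims2.

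Whole reads were recovered from the value of 1 read, which was 1.18 in MCAO left, 0.887 in contralateral right and 0.969 in control right. In each column 99.9% of values above 1 were whole within 0.1 read. Differences were taken as log2(value + 5) over genes whose mean was at least 20, and 2-fold was counted. With 1 library per group there was no test, and counting intervals at 95% were computed with scipy 1.17.1. TMM factors came from edgeR 4.0.16. The procedure was tested on simulated reads. The 7 genes, the 17 other lists and the naming rule (up to 4 genes per list with the largest difference between MCAO left and contralateral right, and the 3 nearest patterns per gene) were chosen with earlier results of these data known. List genes named outside that rule, after their values were seen, are Cyfip2, Col1a1, Col3a1, Bub1, Mal, Nkx2-2, Nkx6-2, Sox5, Sox6, Sox9 and Sox10. Vtn and Anpep were also named after their values were seen. Promoters and positions are RefSeq's for GRCm38.p6, where Olig1, Gpr17 and Bcas1 had no window used here. Any window on chromosome 18, where Gpr17 lies, was left out. The reference used here gives gene spans, so levels of different genes were not compared per length. Values of a few listed genes are left out.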

Additional observations from a re-analysis of the deposited data

How the results depend on the processing

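Alternatives were a pseudocount of 1 or 20, scaling by recovered reads, by TMM or by the median ratio of 12 astrocyte genes, 1.5-fold in place of 2-fold, no filter, and a minimum mean of 100. Scaling to the astrocyte genes moved the median of all genes by -0.14 between MCAO left and control right and by -0.15 between contralateral right and control right. Those 12 genes were divided, with 7 above control right in MCAO left and 5 below, and their summed value was 0.945-fold control right. A scaling to that sum was not run, so the direction of the shift rests on the median ratio. Scaled by the median ratio, Olig2 was at 0.93 in log2 between MCAO left and control right, so 0 genes of the set were counted as higher in place of 1. The median of the 7 genes was then -0.052 between MCAO left and control right, and -0.39 between contralateral right and control right. Pdgfra, Gpr17 and Enpp6 changed sign between MCAO left and control right there, at -0.05, -0.10 and -0.11. The other 18 of the 21 differences kept their sign under all 8 alternatives. The 1.5-fold threshold, no filter and the minimum mean of 100 could not alter a log2 difference of the 7 genes. All 7 passed each filter, so the filter settings could not alter their counts either. At 1.5-fold 1 gene each was counted as lower in MCAO left than in control right, as higher in MCAO left than in contralateral right, and as higher and as lower in contralateral right than in control right. In all, 43 of 48 counts and 158 of 168 log2 differences of the 7 genes stayed within the count ratio of 1.5 or the counting interval. These totals include the settings that could not alter them. All 10 log2 differences that moved did so with astrocyte scaling, out of 21. Of the counts of the other lists, 770 of 816 stayed within the count ratio. Ratios of reads within a library do not depend on these settings. No paired analysis was possible because each group had 1 library. Depth limits Enpp6 and Tnr, with 110 to 344 reads per library.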

Other observations

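In the list of lineage transcription factors, some genes were, like Olig2, higher in both libraries from animals with MCAO than in control right. These were singled out after their values were seen. The list as a whole was divided, with 10 of 18 genes above control right and 8 below in MCAO left, and 10 above and 8 below in contralateral right. Its median log2 differences from control right were 0.10 and 0.09 in that order. Nkx2-2, a homeodomain factor that promotes differentiation, had a normalised read count of 346 in MCAO left, 306 in contralateral right and 217 in control right. Nkx6-2, a related factor of myelinating cells, had 966, 876 and 610 in the same order. Sox9, an astrocyte and progenitor factor from the astrocyte list, had 2623 in MCAO left, 2446 in contralateral right and 1522 in control right. Sox10, which is required for myelination, had smaller steps, with 743, 614 and 552. Sox5 and Sox6 had 1066 and 1237 in MCAO left, 1183 and 1389 in contralateral right, and 1224 and 1304 in control right.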
